A study of Homo sapiens with 23 samples.

Results

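The untreated SCi-NCCIT cells were profiled in 3 poly(A)-selected RNA libraries, which are 3 of the 6 RNA libraries and 3 of all 23 samples of the series. They were chosen by their labels, as the RNA libraries of cells that received no doxycycline, and every value below comes from these 3 libraries only. NCCIT is a human embryonal carcinoma line, and the study used it to ask how SVA elements, a young class of human transposons, act on gene expression. SCi-NCCIT cells carry a piggyBac cassette with a doxycycline-inducible dCas9-KRAB repressor and puromycin resistance, together with a constitutively expressed pair of guide RNAs against SVAs, which also match LTR5Hs elements, on a plasmid that gives geneticin resistance. Stable clones were isolated under puromycin after the repressor cassette was introduced, and the line was then selected for the guides and kept in both drugs, so the untreated cells are a modified and selected line, and RNA from unmodified NCCIT cells was not analysed here. The labels number the libraries as replicates 1, 2 and 3 and do not say whether they came from separate cultures, so the spread between them may be technical.

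Embryonal carcinoma cells are the malignant counterpart of early embryonic cells. They share with embryonic stem cells a transcription factor circuit built around OCT4 (the product of POU5F1), SOX2 and NANOG, which keeps differentiation genes low and activates its own members, while LIN28A blocks maturation of the let-7 microRNAs and binds many mRNAs. Germ cell tumours of other types keep other programmes, such as the primordial germ cell programme of seminoma or the yolk sac programme.

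Expression is given in TPM, a level per transcript length scaled to the same total in every library, summed over the transcripts of each gene. A gene is described as on when it had at least 1 TPM in each of the 3 libraries, as off when it was under 0.1 TPM in each, and as between otherwise. By this rule 13121 of 36085 genes were on (36.4%), and 12469 of 19849 protein-coding genes (62.8%). Off were 15990 of all genes (44.3%) and 3295 of the protein-coding genes (16.6%). The libraries held 15305909, 33286581 and 45295427 estimated counts in replicates 1, 2 and 3, and a gene near 1 TPM had a median of 18, 37.9 and 52.2 counts in them. Near 0.1 TPM the median was 2 to 3.02 counts, and for a coding transcript of median length 3 counts were worth 0.189 TPM in replicate 1 and 0.0642 TPM in replicate 3. Counting error alone therefore limits what off can mean, mostly in the shallowest library.

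All 4 genes that mark the cells were on, and each was in the upper range of the transcriptome. SOX2 had 371, 352 and 319 TPM in replicates 1, 2 and 3, and ranked 308 of 36085 genes. LIN28A had 308, 320.4 and 313 TPM (mean 314 ± 6.28, SD, n = 3). POU5F1 had 250.5, 190.5 and 178 TPM, a mean of 206 ± 38.6. NANOG was the lowest of the set, with 41.7, 54.4 and 44.9 TPM. The highest LIN28A value was above the lowest SOX2 value, so these neighbours were not separated by their spread, whereas every POU5F1 value was below every value of both genes and every NANOG value was below every POU5F1 value. The markers given for the cells were thus all present. In bulk RNA, fewer cells that express a gene and less RNA of it per cell cannot be told apart, here and for every gene below.

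Read assignment bears on these levels, because POU5F1 and NANOG have processed copies elsewhere in the genome. The leading POU5F1 transcript shared 77.9% of its 31-base words with other annotated genes, and the leading NANOG transcript 91.3%. The nearest annotated copies nevertheless received almost nothing. These values come from the same read assignment, so they cannot show whether shared reads were placed rightly. POU5F1B, which held 50.7% of the words, had 0.772, 0.732 and 0.552 TPM, and NANOGP8, which held 82.0% of the NANOG words, was listed at 0 in each library. For SOX2 and LIN28A the shared portion was 3.79% and 3.27%. Transcripts outside the annotation were not compared by words. Of those with a mean of at least 10 TPM, 1 was within 3 nt of the leading POU5F1 transcript in length. It had 26.4, 26.0 and 30.9 TPM in replicates 1, 2 and 3. For SOX2 there were 3, with 63.2, 74.1 and 81.7 TPM together, and for NANOG and LIN28A none. Whether they took reads of these genes was not tested.

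Beyond the core, the wider pluripotency list was almost wholly on, at 33 of 37 genes quantified, with none off and a median of 30.3 TPM. Across all 19849 protein-coding genes 62.8% were on and the median was 5.42 TPM. High members were CD9, a tetraspanin of the stem cell surface, at 325 ± 11.5 TPM, L1TD1, an RNA-binding protein of transposon origin, at 272 ± 17.5, and DPPA4, a chromatin factor of pluripotent cells, at 196 ± 13.5. The members that were not on were FOXD3, at 0.276, 0.328 and 0.250 TPM, and the NODAL pathway genes NODAL, LEFTY1 and LEFTY2. NODAL, the ligand that sustains primed pluripotency, had 0.494, 0.0946 and 0.201 TPM, while its co-receptor TDGF1 (CRIPTO) stood at 192, 186 and 183 TPM. LEFTY2 reached 1.33 and 1.83 TPM in replicates 1 and 2 and 0.967 in replicate 3.

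Genes of naive pluripotency, the pre-implantation state, were lower. Of 15 genes, 11 were on (73.3%, against 62.8% of all protein-coding genes). The median, however, was 2.99 TPM and only 4 reached a mean of 10 TPM. These were KLF4 (27.6 ± 2.09 TPM), TFAP2C (26.7 ± 0.981), FGF4 (15.3 ± 0.612) and SUSD2 (11.4 ± 1.02). KLF17, a factor of the human naive state, was off, with at most 0.0297 TPM in any library, and KLF5 had 7.35, 5.32 and 9.78 TPM.

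**Figure D1:**
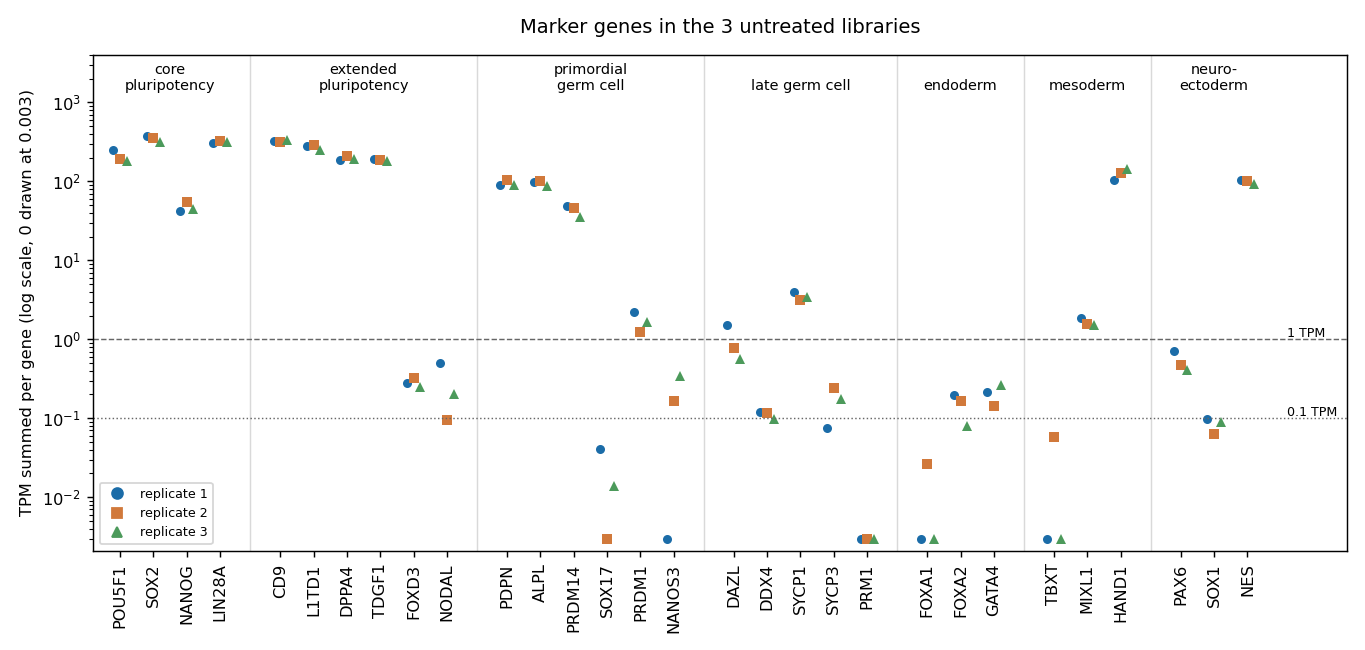
TPM summed per gene on a log axis for pluripotency, germ cell and germ layer markers, with 1 point for each untreated library and values of 0 drawn at 0.003; dashed and dotted lines mark 1 and 0.1 TPM. The 4 core genes sit between 41.7 and 371 TPM, while SOX17, SOX1, FOXA1, TBXT and PRM1 lie under 0.1 TPM in all libraries. HAND1, NES, PDPN and ALPL, from the germ layer and germ cell lists, lie within the range of the core genes.

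Genes of primordial germ cells were on in 10 of 14 cases (71.4%, near the 62.8% of all protein-coding genes), and the factors of human germ cell specification had unlike levels. SOX17, the first factor of human germ cell specification, was off at 0.0405, 0 and 0.0138 TPM. PRDM1, its partner in repressing somatic genes, was just on at 2.19, 1.23 and 1.67 TPM, and NANOS3, an RNA-binding protein that protects early germ cells, had 0, 0.167 and 0.343 TPM. The highest members were PDPN (95.1 ± 8.91 TPM), a sialoglycoprotein stained in seminoma, ALPL (94.9 ± 7.99), the tissue-nonspecific alkaline phosphatase, PRDM14 (43.5 ± 6.88) and KLF4. TFAP2C, which acts with SOX17 and PRDM1 in germ cell specification, had 26.7 TPM. PRDM14, KLF4 and TFAP2C also stand on the pluripotency lists.

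Later germ cell genes were mostly low. Of 62 genes, 14 were on (22.6%) and 20 off, with a median of 0.191 TPM. Over all protein-coding genes 62.8% were on and 16.6% off, with a median of 5.42 TPM. By role, 3 of 15 genes of RNA regulation and the piRNA pathway were on, 7 of 20 meiosis genes, 2 of 14 spermatid genes and 2 of 13 oocyte genes. DAZL, a translational regulator that licenses germ cells for meiosis, had 1.53, 0.786 and 0.568 TPM and was above 1 TPM in replicate 1 alone. The germ cell helicase DDX4 had 0.121, 0.115 and 0.0991 TPM, and MAEL, of the piRNA pathway, 0.542, 0.545 and 0.545. The highest members were ODF2 at 58.6 ± 3.49 TPM, which also serves as a centriole component in dividing cells, MSH5 at 10.7 ± 1.81, MEIOB at 7.55 ± 0.574 and the meiotic cohesin REC8 at 7.13 ± 0.677. With transcripts of identical length and counts outside the annotation, REC8 reached 12.4 TPM, so the order of these genes depends on them. The protamine PRM1, which packs sperm DNA, was listed at 0 in every library. Taking both germ cell lists, 24 of 76 genes were on (31.6%) and 21 were off.

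Cancer-testis antigens, which are restricted to testis and reappear in tumours, were mostly low, with CTAG2 far above the others. Only 3 of 37 quantified genes were on (8.11%), 19 were between and 15 were off, and the median was 0.0796 TPM. Over all protein-coding genes 62.8% were on and 16.6% off. CTAG2 (LAGE-1) had 253, 226 and 227 TPM, on the scale of the core pluripotency genes. Its relatives CTAG1B and CTAG1A each held 53.9% of the words of the leading CTAG2 transcript. CTAG1B was at or next to 0 in each library, and CTAG1A had 3.39, 2.14 and 3.42 TPM, above 1 TPM in each. Whether reads shared by these genes were placed rightly was not tested. DDX43 followed at 12.03 ± 0.291 TPM and PAGE5 at 5.88 ± 0.638. The first MAGE genes of the list were low, with MAGEA1 under 0.0573 TPM, MAGEA2 at 0.342 to 0.522 and MAGEA3 at 0.169 to 0.408.

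Among the markers used to type germ cell tumours, all 9 embryonal carcinoma genes were on, against 62.8% of all protein-coding genes. SOX2, LIN28A, DNMT3B and SALL4 among them also stand on the pluripotency lists. Keratins KRT8 and KRT18, the simple epithelial pair, had 462 ± 40.4 and 453 ± 53.2 TPM, and the 3 KRT8 values were 432, 446 and 508. TNFRSF8, which encodes the clinical marker CD30, was on at a modest 4.74, 4.52 and 4.21 TPM, and CDH1 at 2.68, 6.08 and 3.74. Of the seminoma genes 4 of 6 were on (66.7%, near the share of all protein-coding genes). KIT had 2.29, 3.47 and 3.13 TPM, while SOX17 and MAGEA4 were off. On the yolk sac list 2 of 10 were on. AFP, the serum marker of yolk sac tumour, had 0.0505, 0 and 0 TPM, yet GPC3, a glypican on the same list, had 386, 417 and 451 TPM. The 3 GPC3 values were above every POU5F1 value.

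Germ layer markers were on in 18 of 48 cases (37.5%) and off in 7, with a median of 0.488 TPM. Over all protein-coding genes 62.8% were on and 16.6% off, so the off count was near the general share. In the endoderm list 4 of 15 were on, and the regulators at its head were low: SOX17 was off, FOXA1 had at most 0.0260 TPM, and FOXA2 had 0.197, 0.167 and 0.0805. The highest was KLF8 at 16.7 ± 1.72 TPM, followed by FOXA3 at 2.96 ± 0.803. In the mesoderm list 6 of 16 were on. TBXT (brachyury), the primitive streak factor, was off at 0, 0.0582 and 0 TPM, and MIXL1 had 1.84, 1.56 and 1.54. HAND1, a bHLH factor of heart, extraembryonic mesoderm and trophoblast, stood apart from its list at 104, 126 and 143 TPM, and the next member, ISL1, had 4.84 ± 1.05.

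The neuroectoderm list had 8 of 17 genes on. PAX6, the eye and forebrain factor, had 0.718, 0.467 and 0.409 TPM, SOX1 was off at 0.0988, 0.0625 and 0.0896, and SOX3 was on at 3.74 ± 0.741. The highest members were the intermediate filament NES (98.8 ± 6.67 TPM), the tubulin TUBB3 (33.0 ± 4.23), LHX2 (11.1 ± 1.15) and MAP2 (8.44 ± 1.05), so that 2 cytoskeletal genes led the list. Neural crest genes were on in 5 of 10 cases (50%, against 62.8% of all protein-coding genes), none at a mean of 10 TPM. SOX9 and SOX10 were off there, and NGFR was highest at 4.91 ± 0.390.

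Trophoblast genes were on in 5 of 18 cases (27.8%, against 62.8% of all protein-coding genes). TFAP2A, a factor shared by trophoblast, surface ectoderm and neural crest, had 435, 509 and 445 TPM, the highest of any gene on the trophoblast, germ layer and neural crest lists, whereas GATA2 and GATA3 had 4.599 ± 0.871 and 2.53 ± 0.555 TPM and the hormone subunit CGA had 0, 0.195 and 0.108. CDX2 stayed just under 1 TPM, at 0.650, 0.953 and 0.960.

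**Figure D2:**
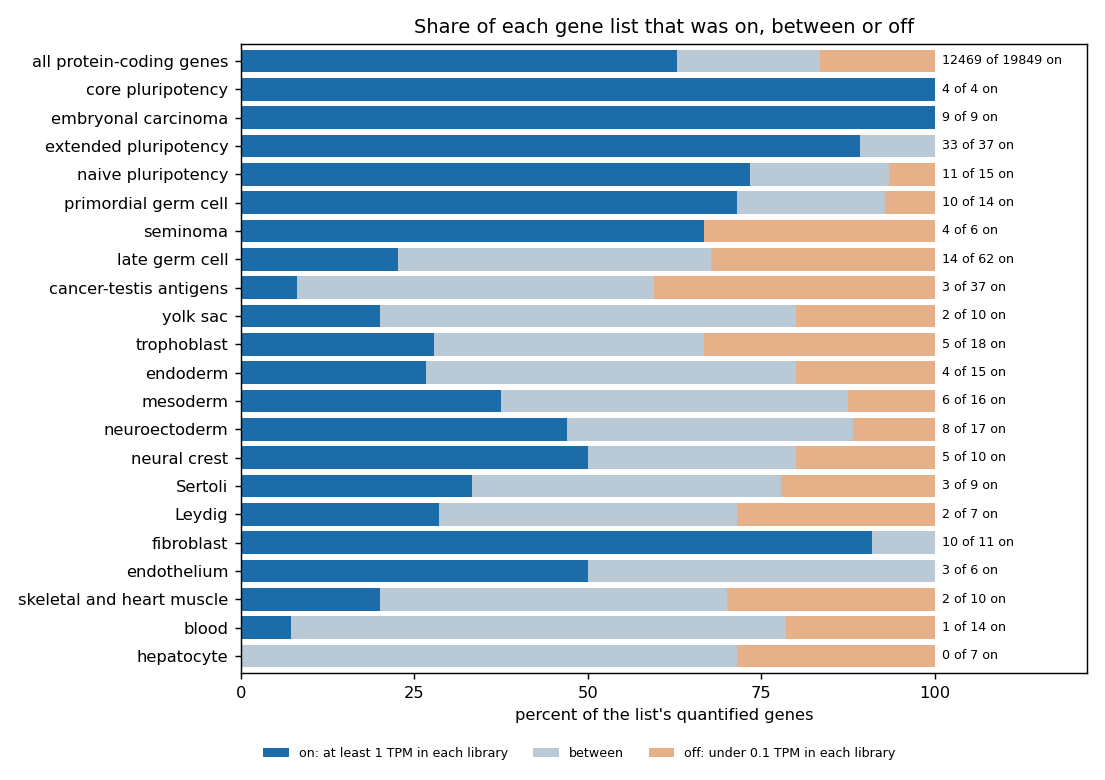
Percent of the quantified genes of each list that were on (at least 1 TPM in each library), between, or off (under 0.1 TPM in each library), with all protein-coding genes in the top bar. The core pluripotency, extended pluripotency and embryonal carcinoma lists are on at 89.2 to 100%. The fibroblast list is on at 90.9% and the naive pluripotency list at 73.3%. The cancer-testis, blood and hepatocyte lists are on at 0 to 8.11%.

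Markers of other cell types, listed as a check for foreign RNA, were on in 21 of 64 quantified cases and off in 12. Over all protein-coding genes 62.8% were on and 16.6% off. None of 7 hepatocyte genes was on, and ALB had 0.382, 0.0935 and 0.0861 TPM. Of 14 blood genes 1 was on, and PTPRC (CD45), which marks white blood cells, had 0.0756, 0.266 and 0.0643. The fibroblast list was different, with 10 of 11 genes on. It was led by VIM at 1181 ± 37.7 TPM, with COL3A1 at 52.0 ± 8.39, FN1 at 48.5 ± 5.64 and S100A4 at 17.9 ± 0.792, while its first markers COL1A1 and COL1A2 had 4.78 ± 1.04 and 1.17 ± 0.755 and DCN 1.71 ± 0.658. The part of other cells in these values was not tested. Among somatic gonad genes, AMH had 22.6, 21.7 and 15.8 TPM and WT1 9.82 ± 0.833, and the Sertoli factor SOX9 was off. DES, an intermediate filament of muscle, had 32.5 ± 2.17 TPM, while the myogenic factors MYOD1 and MYOG were at most 0.108 and 0.0660.

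The transcription factor families showed how uneven the members were. Their counts are to be read beside the 62.8% of all protein-coding genes that were on. Of 19 SOX genes 10 were on, led by SOX2 and by SOX21 at 113 TPM, with SOX13 at 53.7, SOX4 at 47.7 and SOX12 at 19.8. In the POU family 7 of 15 were on, with POU5F1 far above the next, POU6F1. Of 39 HOX genes, which pattern the body axis, 5 were on, and none exceeded HOXB3 at 7.16 TPM; HOXB2, HOXD4, HOXC4 and HOXB7 were the others. GATA genes were on in 3 of 6 cases, with none above GATA2, and PAX3 at 2.77 TPM was the only PAX gene on of 9. In the T-box family 3 of 16 were on, with TBX1 at 9.09 TPM. In some families all or nearly all members were on. All 3 MYC genes were on, in the order MYCN (69.8), MYC (16.7) and MYCL (7.76), as were 7 of 8 E2F genes, all 4 TEAD genes and all 8 SMAD genes. FOXM1, a factor of the cell cycle, was the highest of 21 FOX genes that were on, at 109.9 TPM, followed by FOXK2 at 56.8 and FOXC1 at 44.04.

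The signalling lists were read by the role of their members, as ligands, receptors and inhibitors, which pass a signal from outside the cell to the transducers. In the TGF-beta family list 31 of 42 genes were on (73.8%), in the FGF list 17 of 29 (58.6%) and in the WNT list 22 of 43 (51.2%), shares that lie around the 62.8% of all protein-coding genes. Ligands were on in 9 of 13 cases, receptors and co-receptors in 10 of 12, inhibitors in 5 of 10, and the SMAD transducers with FOXH1 in 7 of 7. TDGF1 led at 187 ± 4.45 TPM, ahead of the ligand GDF3 (51.6 ± 1.45) and of SMAD2 and SMAD4 (44.6 ± 4.05 and 40.6 ± 2.88). For FGF, 7 of 18 ligands were on, and 10 of 11 receptors and inhibitors. FGFR1 was the highest at 503, 512 and 418 TPM, and all 4 receptors were on, FGFR2 at 51.3 ± 4.14. SPRY2, a feedback inhibitor, had 53.8 ± 2.03, and the ligand-like FGF13, which stays inside the cell, 45.6 ± 3.97. For WNT, 6 of 19 ligands were on, and 16 of 24 receptors and inhibitors. The secreted inhibitor SFRP2 had 115 ± 8.53 TPM and the receptor FZD7 112 ± 3.75, with FZD6 at 17.8 ± 1.53 and LRP5 at 17.7 ± 1.79.

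Imprinted genes are expressed from a single parental allele in most tissues. They were on in 15 of 25 quantified cases, 4 of 7 maternally and 11 of 18 paternally expressed. That is 60%, near the 62.8% of all protein-coding genes. SNRPN, a spliceosomal protein gene of the Prader-Willi region, had 658, 618 and 595 TPM, MEST 96.5 ± 2.96, NDN 65.5 ± 3.73 and PEG10 57.8 ± 7.65. SNURF overlaps SNRPN, so reads of these genes could be divided, and its 11.2, 16.3 and 23.4 TPM are uncertain. Which allele was expressed cannot be read from these files.

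At the top of the transcriptome stood the translation machinery, the mitochondrial genome and glycolysis. EEF1A1, the elongation factor that delivers tRNA to the ribosome, was the highest gene, with 14253, 14664 and 14588 TPM. Its 3 values spanned a 1.03-fold range. The highest mitochondrially encoded mRNAs were MT-CO1, at 11518, 15102 and 13921 TPM, MT-CO3 (mean 10935), MT-CO2 (9197), MT-ATP8 (9041) and MT-ND4L (8386). MT-ATP8 and MT-ND4L overlap MT-ATP6 and MT-ND4 on shared transcripts, so that their own levels are uncertain. ENO1 and GAPDH, which catalyse steps of glycolysis, had 6005 ± 168 and 5410 ± 108 TPM.

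With the mitochondrial mRNAs set aside, the other genes among the 25 highest protein-coding genes were ribosomal proteins and RACK1, a scaffold protein bound to the small ribosomal subunit. Among them were RPL41 (8299.8, 7501 and 8398 TPM), RPS27 (7325, 7559.6 and 7919), RPL39 (mean 6547) and RPL37A (5987). They continued through RPL36A (5237), RPL4 (5175), RPS2 (5115) and RPS18 (4962) to RPL31 and RPL13 at 3686 and 3676 TPM. RPS2 had 5605, 4653 and 5088 TPM, a wider spread than that of EEF1A1. RACK1 had a mean of 3866 TPM.

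By class, 87 cytosolic ribosomal protein genes held 24.9, 22.8 and 24.4% of all TPM in replicates 1, 2 and 3, and the 13 mitochondrial mRNAs 6.82, 8.70 and 7.85%. Replicate 2 was thus the lowest of the libraries for the first class and the highest for the second. The 13 redox and 15 apoptosis genes on the lists were on in 12 and 13 cases (92.3 and 86.7%). Of all protein-coding genes 62.8% were on. The 15 translation factors held 3.11 ± 0.0378%, 19 glycolysis genes 1.72 ± 0.0167%, and 19 cytoskeletal genes 1.78 ± 0.00973%, led by ACTG1 at 3164 TPM. At the other end, 515 ZNF genes, of which 450 were on, held 0.553 ± 0.0168% together, and 55 keratins, of which 4 were on and 45 off, 0.0948 ± 0.00960%. Of 399 olfactory receptor genes 341 were off and 2 were on, with OR4F17, named after its value was seen, at a mean of 18.2 TPM.

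**Figure D3:**
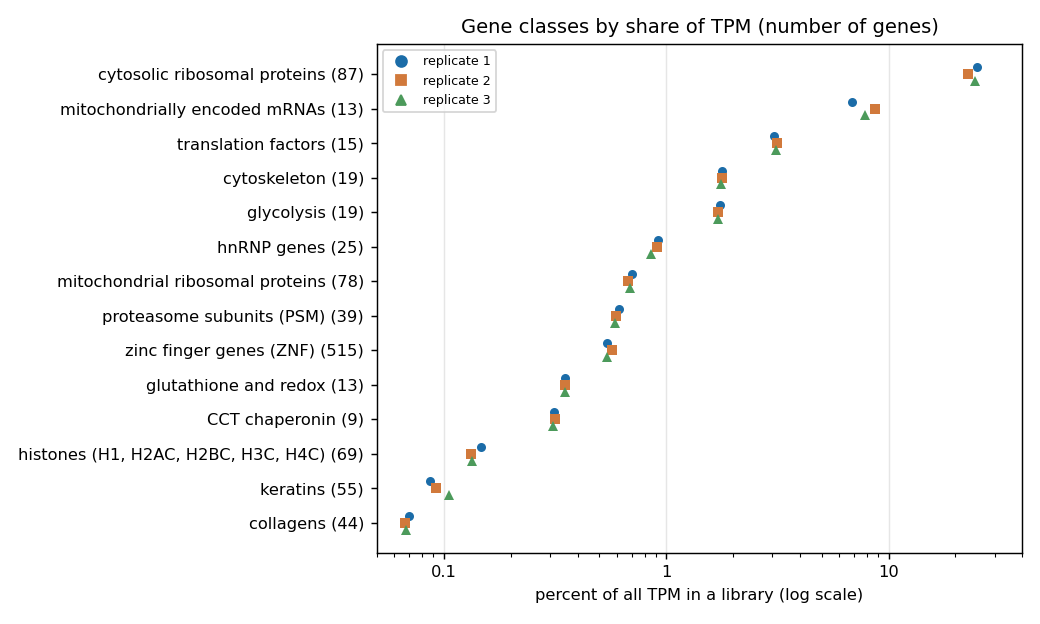
Share of all TPM held by each gene class on a log axis, with 1 point for each untreated library and the number of genes in parentheses. Ribosomal proteins (22.8 to 24.9%) and mitochondrial mRNAs (6.82 to 8.70%) lead, and replicate 2 is lowest in the first and highest in the second.

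The 100 highest genes held 37.3 ± 0.365% of TPM, and 12 of them were mitochondrial, 66 ribosomal and 22 other. Short transcripts weigh heavily in a value per length: ranked by estimated counts instead, the 100 highest genes held 20.2% of the counts, with 42 ribosomal protein genes among them, and 67 genes were in both lists. The median transcript length was 758 nt for the list by TPM and 1287 nt for the list by counts. By counts the mitochondrial share was 3.84%, and the share of the 87 cytosolic ribosomal protein genes was 8.39%. Outside the ribosomal and mitochondrial classes the highest genes after GAPDH were HNRNPA1 (3513 TPM), NPM1 (3345), EEF1G (3301), ACTG1, FTH1 (2767), PTMA (2471), YBX1 (2447), NACA (2413) and MDK (2410). MDK encodes midkine, a secreted growth factor of embryonic tissue. This last group was named after the values were seen.

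The start sites of these genes were read from RefSeq promoters (GRCh38.p14), each 250 bases before to 50 after a start. Promoters were found for 69 of the 88 nuclear genes among the 100 highest. Each line shows the 15 bases before and the 15 from the start site, 5′ to 3′ on the coding strand, for 6 genes with a RefSeq start at a C that opens an unbroken pyrimidine run (in capitals), and for ENO1 and GAPDH, which lack it. NPM1 has 2 RefSeq starts, 1 with the run and 1 without, and both are shown, since which start the RNA used was not measured. Such a start, the terminal oligopyrimidine tract, is known from mRNAs of the translation machinery.
EEF1A1, chr6:73521018-73521047, minus strand: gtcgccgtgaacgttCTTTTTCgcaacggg
RPL41, chr12:56116618-56116647, plus strand: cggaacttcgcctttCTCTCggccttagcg
RPS27, chr1:153990747-153990776, plus strand: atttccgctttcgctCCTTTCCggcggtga
RPL39, chrX:119791616-119791645, minus strand: ttcttccgccagcttCCCTCCTCTTCCTTT
RPL37A, chr2:216498829-216498858, plus strand: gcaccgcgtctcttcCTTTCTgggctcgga
NPM1, chr5:171387834-171387863, plus strand: cggggagcctgcgtcCTTTCCCTggtgtga
NPM1, other start, chr5:171387101-171387130, plus strand: ctccgagctctcttagggcgatgtccttgc
ENO1, chr1:8878672-8878701, minus strand: gcgggcggcgcggacagtatctgtgggtac
GAPDH, chr12:6535249-6535278, plus strand: agcgggtgcatccctgtccggatgctgcgc

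A C at the start followed by at least 4 pyrimidines was present in 45 of the 90 promoters of the highest genes (50%), against 4.07% of all 35116 promoters and 5.25% of promoters of protein-coding genes that were on. Within the highest genes it was found for 39 of 52 ribosomal protein genes and for 6 of 17 others. This rule was set after the promoters had been seen. The motifs of the original list, searched on both strands of the whole 300 bases, were compared between the highest genes, all promoters and promoters of protein-coding genes that were on. The pyrimidine tract CTCTTTCC was in 15.6, 3.04 and 2.996% of them, and the YY1 core AAGATGGCG in 5.56, 1.75 and 3.45%. The TATA box TATAAA was in 7.78, 11.5 and 6.01%, so its share among the highest genes was below that of all promoters and above that of genes that were on. The CCAAT box CCAAT was in 32.2, 34.6 and 34.9%. CTCTTTCC may overlap the start tract. A match describes letters in a window and is not evidence of use.

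Few genes were carried by a lone transcript. Of 8123 genes with a mean of at least 10 TPM and 2 or more quantified transcripts, 892 (10.98%) had a transcript with at least 90% of the gene's TPM in each library, and in 2545 (31.3%) the leading transcript stayed under 50% in each. The median share of the leading transcript was 58.8%. The same transcript led in all 3 libraries in 7125 genes (87.7%), and the MANE Select transcript, the agreed reference form, led in 5123 of the 7780 genes where it was quantified (65.8%). In protein-coding genes 86.6 ± 0.148% of TPM lay on coding transcripts, 5.80 ± 0.0229% on transcripts with a retained intron and 3.65 ± 0.105% on targets of nonsense-mediated decay. These shares are kallisto's point estimates, and its own uncertainty for similar transcripts was not analysed here.

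The core genes differed in this respect. POU5F1 was carried by POU5F1-201, the form that encodes OCT4A, at 99.3, 99.5 and 99.1% of its TPM, and SOX2 and L1TD1 had 1 transcript each. LIN28A was divided between LIN28A-201 at 65.9, 69.5 and 67.5% and, for the rest, the longer MANE Select form of 3975 nt. NANOG was spread over NANOG-202 (38.6 ± 2.57%), NANOG-203 without a defined coding sequence (28.8 ± 3.03%) and the MANE Select form NANOG-201 (25.5 ± 4.48%). In replicate 2, NANOG-201 had its lowest share, 21.4%, and in replicate 1 its highest, 30.4%. DNMT3B, the de novo DNA methyltransferase of early embryos, was led by a 4336 nt form at 51.6 ± 0.895%, with a 4048 nt form at 33.7 ± 1.44%. TDGF1-201 held 67.2 ± 0.731% of TDGF1, and a 643 nt transcript with a retained intron, TDGF1-204, 30.2 ± 0.540%. OTX2 had 2 transcripts that changed places: a 3001 nt form had 36.3, 39.5 and 44.3% and a 1082 nt form had 41.0, 40.5 and 36.9%.

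**Figure D4:**
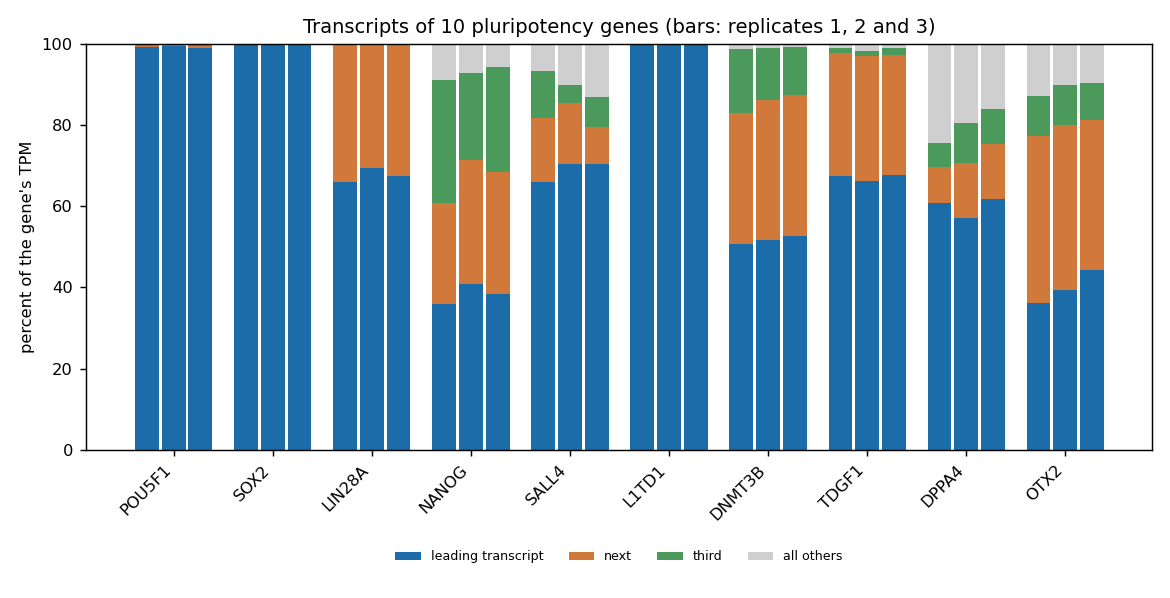
Share of each gene's TPM held by its leading transcript, the following pair and all others, as 3 stacked bars for replicates 1, 2 and 3, for 10 pluripotency genes. POU5F1, SOX2 and L1TD1 are filled by the leading transcript, and in NANOG it holds 35.8 to 40.9%.

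Among transcripts matched to the annotation and outside the mitochondrial genome, the highest was EEF1A1-203, with 12682, 12855 and 13109 TPM and 88.8% of its gene. Other high transcripts were the leading RPL41 transcript (mean 7745), RPS27-205 (7526), RPL39-201 (6543), ENO1-201 (5692) and GAPDH-201 (5306), each with at least 94.8% of its gene. A transcript of 1049 nt that was not matched, and so was assigned to no gene, had 6265, 8314 and 7681 TPM. Among very high genes with divided output, RPL4 was led by a retained-intron transcript, RPL4-203 (39.8 ± 2.27%), ahead of the coding RPL4-216 (27.5 ± 1.02%). RPL11-201, a coding form, and the retained-intron RPL11-205 held 44.5 ± 3.42 and 43.9 ± 2.92%, and which of them led differed between libraries, as it did for FTH1. NPM1 was led by the retained-intron NPM1-210 (46.7 ± 1.81%), and HNRNPA1 and RACK1 by coding forms at 33.0 ± 0.779 and 47.7 ± 0.735%.

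Long non-coding RNAs were covered only in part, since 843 genes of this class had a quantified transcript and none of the 27 genes on the non-coding list was among them. Of the 843, 227 were on and 71 had a mean of at least 10 TPM. The highest were ENSG00000290689 (102 TPM), ENSG00000291003 (95.5), SNHG32 (89.03), STAG3L4 (66.9), ENSG00000290846 (66.6), HHLA3 (64.2), HERC2P3 (61.5), STAG3L5P (59.5), ENSG00000290928 (54.3) and SDHAP1 (53.6). Several of them are relatives of coding genes, and their reads may be shared with those. SNHG32 had additional transcripts of identical length and counts outside the annotation, and with these it reached 406 TPM.

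The 3 libraries resembled each other closely. Across 36085 genes, which are not independent of each other, Pearson's r of log2(TPM + 1) was 0.994, 0.995 and 0.997 for replicates 1 and 2, 1 and 3, and 2 and 3, and Spearman's rho was 0.949, 0.948 and 0.955. Over the 13121 genes that were on, Pearson's r of log2 values was 0.989, 0.991 and 0.995 for the same pairs. Of the 8539 genes with a mean of at least 10 TPM, 6524 (76.4%) had a coefficient of variation under 10%, and the median was 6.46%. It was 8.23% for genes of 10 to 20 TPM and 4.71% from 100 TPM upward. The biological coefficient of variation estimated by edgeR over 14448 genes, the spread beyond counting noise, was 0.0796 in common, and taken pairwise it was 0.0963 for replicates 1 and 2, 0.0885 for 1 and 3, and 0.0551 for 2 and 3. Replicate 1, the shallowest library, was the one that stood slightly apart.

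Only 26 of the 8539 genes (0.304%) had a highest library at least 2 times the lowest. In 15 of them the lowest library was replicate 1 and in 9 it held the highest value, and without replicate 1 the count was 5. Pseudogenes made up 7 and protein-coding genes 16. RPS9 had 928, 86.1 and 113 TPM, a 10.8-fold range. Near the length of its leading transcript (713 nt) were 7 transcripts of 711 nt outside the annotation that shared 1 value each, 121, 214 and 226 TPM, lowest in replicate 1 where RPS9 was highest, and whether they took reads of RPS9 was not tested. The pseudogene ENSG00000260212 had 689, 0.230 and 0.345 TPM, and it shared 19.9% of its 31-base words with other genes. For RPL36AP37 (0, 49.9 and 26.6 TPM after rounding) and H3P6 (0.122, 3.91 and 30.3) that share was 100%, with RPL36A and H3-3A as the nearest genes.

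FGF23, a hormone of phosphate balance, differed without such sharing. It had 34.0, 5.10 and 3.91 TPM, from 1102, 347 and 370 estimated counts, and 0.202% of its words occurred elsewhere, so the shallowest library held the most counts. CDK7, the kinase of the general transcription factor TFIIH, had 7.70, 45.4 and 35.0 TPM, with 13.6% of words shared with CDK7P1, which itself had at most 0.170 TPM. LSM14A had 3.63, 13.6 and 15.8 TPM, and its leading transcript of 445 nt shared 17.3% of its words with other genes. Outside the annotation, 2 transcripts of at least 10 TPM lay within 3 nt of that length. Together they had 296, 285 and 291 TPM, and whether they took reads of LSM14A was not tested. The others of the 10 widest ranges were TRAJ35, ENSG00000265982 and RNA5SP82, all of them features of under 100 nt. None of the core pluripotency genes came near such a range, the widest being POU5F1, whose values ran from 178 to 250.5 TPM.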

How the data were processed

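Poly(A)-selected, directional libraries were sequenced, and the authors trimmed adapters and quantified transcripts with kallisto (version not given in the sources used here); the labels name hg19, and the index is not described. The deposited files give, per transcript, its length and effective length, the authors' estimated counts, and TPM, a level per length scaled to the same total in each library. Of 188753 transcripts, 166506 were matched by Ensembl identifier to GENCODE v44lift37 and summed into 36085 genes; the unmatched 22247 held 4.25 to 4.50% of TPM and were left out. Means and SDs cover 3 libraries, and no groups were compared or tested. Estimated counts were rounded for edgeR 4.0.16 (R 4.3.3), which gave the biological coefficient of variation in a single-group fit after being tested on simulated data. Python 3.11.15, pandas 2.3.3 and matplotlib 3.10.9 were used. Words of 31 bases were compared between GENCODE transcripts. Binned signal and peak files were not used.

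Members and gene lists were chosen with earlier results of these data known. Genes named are the 25 highest protein-coding genes, 5 mitochondrial mRNAs, 15 transcripts and 10 long non-coding RNAs, up to 4 highest and 3 defining members of each list, transcription factor family members that were on, the 10 widest ranges, and isoforms of the core genes and of the highest divided genes. Relatives that share words with a named gene, extra genes of the plots and of a few lists, and genes described as such were named after their values were seen. Alternatives covered the thresholds, depth, count-based shares, transcript type, TMM scaling and each library left out. Some genes that this rule names are not reported here.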

Additional observations from a re-analysis of the deposited data

How the results depend on the processing

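The alternatives for genes on were 0.5 or 2 TPM, at least 10 estimated counts, counts thinned to the smallest library, and each library left out. Together with the added copies of identical values they moved the number of genes on between 11951 and 14415. The 4 core pluripotency genes were on in every run. Each of their values was far above 2 TPM, so these thresholds or a left-out library could not have turned them off. Germ layer genes on went from 18 to 11 at 2 TPM and to 29 at 10 counts in each library, and germ cell genes on from 24 to 16 at 2 TPM and to 31 at 0.5 TPM. The 100 highest genes held 36.2% after rescaling to nuclear protein-coding genes and 20.2% by counts, in place of 37.3%, and the mitochondrial share by counts was 3.84%, in place of 7.79%. Genes with 1 dominant transcript went from 892 of 8123 (10.98%) to 1716 of 8123 (21.1%) at 80%. Over coding transcripts only they were 1458 of 6517 (22.4%). Genes with a 2-fold range numbered 592 of 13721 (4.31%) from a mean of 1 TPM and 3 of 1341 (0.224%) from 100 TPM. Among protein-coding genes they numbered 16 of 8366 (0.191%), in place of 26 of 8539 (0.304%). The count was 5 to 20 with a library left out, 37 after thinning and 29 with TMM scaling. The cause of these shifts was not tested beyond the change of rule itself. With a library left out the other results ranged from 13264 to 13339 (genes on), 18 to 19 (germ layer), 24 to 25 (germ cell), 37.1 to 37.4% (100 highest), 7.33 to 8.27% (mitochondrial) and 952 to 968 (dominant transcript). No paired analysis was possible because there is 1 condition and no test. Adding transcripts of identical values outside the annotation and the count over protein-coding genes were chosen after seeing the data; 379 genes had such copies, and with them RPS25, RPL7A and ACTB were 1.88 to 2.00 times higher. Depth limits low genes: 0.1 TPM in replicate 1 rests on about 2 counts.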
